A study of Mus musculus with 6 samples.

Results

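The vascular endothelial growth factor (VEGF) family comprised 9 mouse genes here: the ligands Vegfa, Vegfb, Vegfc and Pgf, the receptors Flt1, Kdr and Flt4, and the co-receptors Nrp1 and Nrp2. These genes were picked by name from their place in the pathway, with no threshold on their values, and were found among 47729 genes by Ensembl identifier and symbol; all 9 were present. RNA-seq was performed on CD144-enriched cells, that is, cells bound by beads against VE-cadherin to concentrate endothelial cells (ECs), from the gastrocnemius muscle of mice after hind limb ischemia (HLI). HLI was set as day 0 by tying off the femoral artery, adenovirus went into the muscle on days 1 and 4 by the labels, and tissue was taken after 1 week. All mice were on a high-fat, high-sucrose (HFHS) diet, which began at 8 weeks of age and lasted 16 weeks.

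There were 3 groups with 2 libraries each. WT-GFP came from WT mice injected with Ad-GFP, an adenovirus that carries only green fluorescent protein. KO-GFP came from Leene-KO mice given the same vector, and KO-LEENE from Leene-KO mice given Ad-LEENE, an adenovirus carrying GFP-tagged human LEENE. LEENE is a long noncoding RNA, and the KO line lacks the syntenic region on chromosome 14 in all cells, made by CRISPR/Cas9 on C57BL/6J; no WT group received Ad-LEENE. The virus was injected into whole muscle, so it was not restricted to ECs, and the labels do not say how many mice stood behind each library.

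VEGFs are secreted ligands that bind receptor tyrosine kinases on ECs and drive the growth, survival and permeability of vessels. VEGFR2, encoded by Kdr, carries most of the VEGF-A signal in blood vessel ECs, VEGFR1, encoded by Flt1, binds VEGF-A, VEGF-B and PlGF and is often viewed as a trap for VEGF-A, and VEGFR3, encoded by Flt4, binds VEGF-C and is best known from lymphatic vessels. Neuropilins have no kinase of their own and act as co-receptors for VEGFs and as receptors for class 3 semaphorins. In muscle made ischemic, low oxygen is a classical inducer of VEGF-A through hypoxia-inducible factors.

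Libraries held 1770992 to 5602603 reads assigned to genes. Mitochondrially encoded genes took 50.1% and 50.9% of reads in WT-GFP and 33.6% to 34.3% in the other libraries. The headers carry 3 facility sample numbers for the 6 libraries, 1 number for both libraries of a group. Within a pair the squared differences between libraries were 1.17 to 1.21 times counting noise, and between groups 54.1 to 84.9 times. Tests therefore measure the spread between libraries of a pair that may share a source, mouse-to-mouse variation was not measured, and group and library preparation cannot be told apart. A gene at 3 reads or fewer in a library is treated as at the detection floor, which was 0.695 to 1.17 CPM (reads relative to the library's total, with TMM factors for library composition).

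Many genes that most cells use also differed between groups. Of 13 tested, 12, 12 and 11 were called (edgeR, adjusted p under 0.05) in KO-GFP against WT-GFP, KO-LEENE against KO-GFP and KO-LEENE against WT-GFP. These were 92.3%, 92.3% and 84.6%, against 70.1%, 67.8% and 70.7% of all genes. Polr2a in KO-GFP against WT-GFP and Actb in KO-LEENE against WT-GFP were not called. Actb had 537 and 504 reads in the WT-GFP libraries, 58995 and 38293 in those of KO-GFP, and 298 and 341 in those of KO-LEENE, and Gapdh had 1 to 9 reads in every library. Cdh5 reads, from the gene of the bead target CD144, numbered 332 and 283 with WT-GFP, 322 and 196 with KO-GFP, and 5 and 18 with KO-LEENE, so the marker behind the enrichment was close to the floor in 1 KO-LEENE library. Whether reads were assigned to the right genes could not be checked from tables of counts, so each gene's value holds as far as the deposited assignment does. The part of these shifts in the differences below was not tested. In bulk libraries, fewer cells of a type and less RNA per cell cannot be told apart.

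Promoter sequence is shown for 4 members, to set the VEGFR2 axis side by side: both tested receptors, the main ligand of VEGFR2 and its co-receptor. The windows are the 250 bases upstream of the first RefSeq start site in GRCm38.p6, the build of the counted annotation, written 5′ to 3′ on the gene's strand. Capitals mark GC boxes, the letters GGGCGG on either strand.
Kdr, chr5:75978456-75978705, minus strand: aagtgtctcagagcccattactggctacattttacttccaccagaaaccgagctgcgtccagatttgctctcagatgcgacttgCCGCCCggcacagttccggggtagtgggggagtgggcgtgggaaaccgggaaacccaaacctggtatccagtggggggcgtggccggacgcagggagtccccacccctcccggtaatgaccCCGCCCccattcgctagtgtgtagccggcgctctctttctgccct
Flt1, chr5:147726012-147726261, minus strand: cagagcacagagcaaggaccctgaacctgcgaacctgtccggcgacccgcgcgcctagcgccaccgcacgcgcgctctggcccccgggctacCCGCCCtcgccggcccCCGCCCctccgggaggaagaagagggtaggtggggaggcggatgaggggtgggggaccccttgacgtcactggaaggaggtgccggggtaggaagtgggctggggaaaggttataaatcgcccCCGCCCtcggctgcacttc
Vegfa, chr17:46032378-46032627, minus strand: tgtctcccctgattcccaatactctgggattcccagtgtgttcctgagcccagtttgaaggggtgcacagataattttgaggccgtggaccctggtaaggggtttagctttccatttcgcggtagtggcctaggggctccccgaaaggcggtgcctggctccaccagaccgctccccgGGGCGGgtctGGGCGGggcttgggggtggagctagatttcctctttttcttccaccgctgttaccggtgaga
Nrp1, chr8:128358823-128359072, plus strand: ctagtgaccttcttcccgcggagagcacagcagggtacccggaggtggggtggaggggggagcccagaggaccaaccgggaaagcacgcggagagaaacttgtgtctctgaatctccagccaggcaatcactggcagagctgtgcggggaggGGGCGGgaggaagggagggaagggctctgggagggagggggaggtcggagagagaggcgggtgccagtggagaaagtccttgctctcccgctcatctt

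A promoter was found for 9 of 9 members. All 9 first-start windows held GGGCGG, against 32.7% of 32851 mouse promoter windows of the same length, and their GC content ran from 59.2% to 76.4%, against a median of 52.4% over all windows. All windows here include alternative starts, whereas members were counted by their first start, so the sets are not fully alike. Of the members' second starts, that of Vegfa held 1 GGGCGG and that of Pgf held none. The letters ACGTG, the core of hypoxia response elements, were in 0 of 9 windows and in 16.6% of all windows. The ETS core GGAA was in 8 of 9 and in 93.4% of all windows. A match is a description of letters, and no match says only that these letters are not in these windows; a second annotated Vegfa start, inside the gene, held 1 ACGTG.

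Both receptors that could be tested were lower in KO-GFP than in the WT-GFP group. Kdr (ENSMUSG00000062960, GRCm38 chromosome 5, 75932827 to 75978458, minus strand) was measured at 187 and 181 CPM in WT-GFP, 3.54 and 3.50 CPM in KO-GFP, and 17.6 and 15.2 CPM in KO-LEENE. The 3 groups did not overlap, with WT-GFP highest and KO-GFP lowest. In reads, Kdr had 808 and 708 in the WT-GFP libraries, 13 and 9 in those of KO-GFP, and 47 and 41 in those of KO-LEENE. Both differences that involve KO-GFP thus rest on few KO-GFP reads. Kdr in KO-GFP was 51.8-fold below its WT-GFP level (edgeR, adjusted p = 3.41e-158), and in KO-LEENE 4.61-fold above that of KO-GFP (edgeR, adjusted p = 2.16e-11). It was 11.2-fold lower in KO-LEENE than in WT-GFP, so KO-LEENE lay between the other groups; all 3 differences were called. With TMM scaling KO-LEENE was nearer to KO-GFP by fold, whereas with library size as the only scaling it was nearer to WT-GFP, at log2 differences of 3.36 from KO-GFP and -2.82 from WT-GFP. Measured against Pecam1, an EC junction gene, the WT-GFP libraries had 3.83 and 4.05 Kdr reads for each Pecam1 read, those of KO-GFP 0.0929 and 0.101, and those of KO-LEENE 0.495 and 0.373. The order of the 3 groups was therefore the same per Pecam1 read, but not per Cdh5 read. There the WT-GFP libraries had 2.43 and 2.502 Kdr reads, and those of KO-LEENE 9.40 and 2.28, on either side of WT-GFP and over only 5 and 18 Cdh5 reads.

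Flt1 (ENSMUSG00000029648, chromosome 5, 147561604 to 147726011, minus strand) had 502 and 451 reads in the WT-GFP libraries, 7 and 3 in those of KO-GFP, and 5 and 5 in those of KO-LEENE. WT-GFP stood alone, and the KO-GFP and KO-LEENE libraries were both near the floor. The log2 fold change was -6.14 ± 0.235 (SE) for KO-GFP against WT-GFP (edgeR, adjusted p = 2.26e-117) and -5.93 ± 0.240 in KO-LEENE against WT-GFP (edgeR, adjusted p = 2.73e-107). Between KO-LEENE and KO-GFP no difference was called, at 0.21 ± 0.673 (edgeR, adjusted p = 0.809). The ratio of summed reads there was 1.16, with an exact 95% counting interval from 0.434 to 3.11, so that a change of up to about that size in either direction could not be seen at 10 reads a group. Without the second KO-GFP library the estimate was -0.032, also not called.

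Flt4 (ENSMUSG00000020357, chromosome 11, 49609263 to 49652739, plus strand) had 3 and 2 reads in the WT-GFP libraries, 9 and 2 in those of KO-GFP, and 1 and 0 in those of KO-LEENE. All but 1 library were at or under the floor, and the gene did not pass the filter on low counts, so it was not tested. With no filter on low counts, Flt4 was called lower in KO-LEENE than in KO-GFP (log2 fold change -2.88 ± 1.13; edgeR, adjusted p = 0.0488), a difference that rests on 1 and 11 reads, and was not called in the other comparisons (adjusted p = 0.236 and 0.633, edgeR). The lymphatic marker Lyve1 had 0 to 2 reads in every library. Prox1, the transcription factor of lymphatic identity, had 65 and 46 reads in the WT-GFP libraries, 20 and 25 in those of KO-GFP, and 0 and 4 in those of KO-LEENE.

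Receptor reads were dominated by Kdr and Flt1 in WT-GFP and by Kdr in KO-LEENE. Kdr took 61.5% (exact 95% binomial interval, 58.8 to 64.2) and 61.0% of the reads of the 3 receptors in WT-GFP. In KO-GFP the share was 44.8% (26.4 to 64.3) and 64.3% (35.1 to 87.2), of only 29 and 14 receptor reads. In KO-LEENE it was 88.7% (77.0 to 95.7) and 89.1% (76.4 to 96.4). The KO-GFP intervals cover the WT-GFP shares, and the KO-LEENE intervals lie above them. These and the other counting intervals here cover counting error only. No collapsing of reads copied from 1 molecule is named, and without it reads are not independent and the intervals are too narrow.

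The ligands split into a pair that fell from WT-GFP to KO-GFP, Pgf and Vegfb, and a pair that rose, Vegfa and Vegfc. Pgf, which encodes placental growth factor, a ligand of VEGFR1, was measured at 161 and 158 CPM in WT-GFP, 65.8 and 68.4 CPM in KO-GFP, and 92.2 and 109 CPM in KO-LEENE. Groups did not overlap, but the spans were the narrowest of the 8 members tested. Pgf in KO-GFP was 2.38-fold below its WT-GFP level (edgeR, adjusted p = 1.70e-34), and in KO-LEENE 1.50-fold above that of KO-GFP (edgeR, adjusted p = 3.44e-07). For KO-LEENE against WT-GFP edgeR gave -0.67 ± 0.0935 (edgeR, adjusted p = 5.18e-12), and with library size as the only scaling it was 0.00278 (adjusted p = 0.985), so its direction there depends on the scaling. The log2 fold change for KO-LEENE against KO-GFP was 0.59 with TMM and 1.75 with library size alone.

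Vegfb (ENSMUSG00000024962, chromosome 19, 6982473 to 6987651, minus strand) encodes a second VEGFR1 ligand, linked to lipid uptake by ECs. It had 474 and 472 reads in the WT-GFP libraries, 5 and 6 in those of KO-GFP, and 138 and 155 in those of KO-LEENE. WT-GFP was highest and KO-GFP close to the floor, with no overlap between groups. The log2 fold change was -6.00 ± 0.227 in KO-GFP against WT-GFP (edgeR, adjusted p = 1.40e-119) and 4.92 ± 0.281 in KO-LEENE against KO-GFP (edgeR, adjusted p = 3.25e-60). KO-LEENE lay under WT-GFP by a log2 difference of -1.08 ± 0.115 (edgeR, adjusted p = 1.56e-19).

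Vegfa (ENSMUSG00000023951, chromosome 17, 46016993 to 46032377, minus strand), the main ligand of VEGFR2, went the other way. Its level was 1.85 and 0.511 CPM in WT-GFP, 6.25 and 7.39 CPM in KO-GFP, and 299 and 291 CPM in KO-LEENE. The groups rose in that order without overlap, and in WT-GFP 1 of the 2 libraries had fewer than 3 reads. The log2 fold change was 2.43 ± 0.446 in KO-GFP against WT-GFP (edgeR, adjusted p = 1.34e-07), 5.45 ± 0.148 in KO-LEENE against KO-GFP (edgeR, adjusted p = 7.98e-195) and 7.88 ± 0.184 in KO-LEENE against WT-GFP (edgeR, adjusted p = 3.85e-238). Because WT-GFP held only 10 Vegfa reads, the ratio of summed reads is given with its exact counting interval: 5.53 (2.73 to 12.4) for KO-GFP over WT-GFP and 243 (132 to 508) for KO-LEENE over WT-GFP. Without the first or the second WT-GFP library the log2 fold change was 3.61 or 1.84 in KO-GFP and 9.06 or 7.29 in KO-LEENE, both called. Vegfa was higher than WT-GFP in both KO-GFP libraries and in both KO-LEENE libraries.

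Vegfc (ENSMUSG00000031520, chromosome 8, 54077532 to 54186454, plus strand), the ligand of VEGFR3, had 0 and 2 reads in the WT-GFP libraries, 21 and 16 in those of KO-GFP, and 11 and 10 in those of KO-LEENE. WT-GFP was at the floor and both KO groups were above it. The read ratio was 24.4 (exact counting interval, 6.28 to 209) for KO-GFP over WT-GFP and 16.1 (3.93 to 141) for KO-LEENE over WT-GFP, and both differences were called (adjusted p = 1.11e-09 and 4.32e-06, edgeR). Without the first or the second WT-GFP library, the log2 fold change went from 4.41 to 3.43 or 7.25 in KO-GFP and from 3.81 to 2.84 or 6.65 in KO-LEENE, so the size of the difference rests on which WT-GFP library is used. Between KO-LEENE and KO-GFP the log2 fold change was -0.60 ± 0.435 (edgeR, adjusted p = 0.221), and the ratio of summed reads was 0.660 (0.367 to 1.16), so no difference was detectable at this depth. With library size as the only scaling this estimate was 0.55, also not called.

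The make-up of the ligand reads differed between all 3 groups. Vegfa took 0.679% (exact 95% interval, 0.294 to 1.33) and 0.183% (0.0222 to 0.659) of ligand reads in WT-GFP, 7.90% (5.08 to 11.6) and 8.76% (5.35 to 13.3) in KO-GFP, and 66.9% (64.2 to 69.6) and 63.2% (60.4 to 65.9) in KO-LEENE. Pgf took 59.1% and 56.5% of them in WT-GFP, then 83.2% and 81.1% in KO-GFP, then 20.6% and 23.6% in KO-LEENE. Vegfb took 40.2% and 43.2%, 1.72% and 2.76%, and 11.6% and 12.4% in the same order. When reads were divided by exonic length first, Vegfa was 3.28% of ligand reads in KO-GFP and 40.9% in KO-LEENE, with the same order of groups. Pgf in KO-LEENE then took 35.9% and 39.4%, and Vegfb 19.8% and 20.5%.

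**Figure D1:**
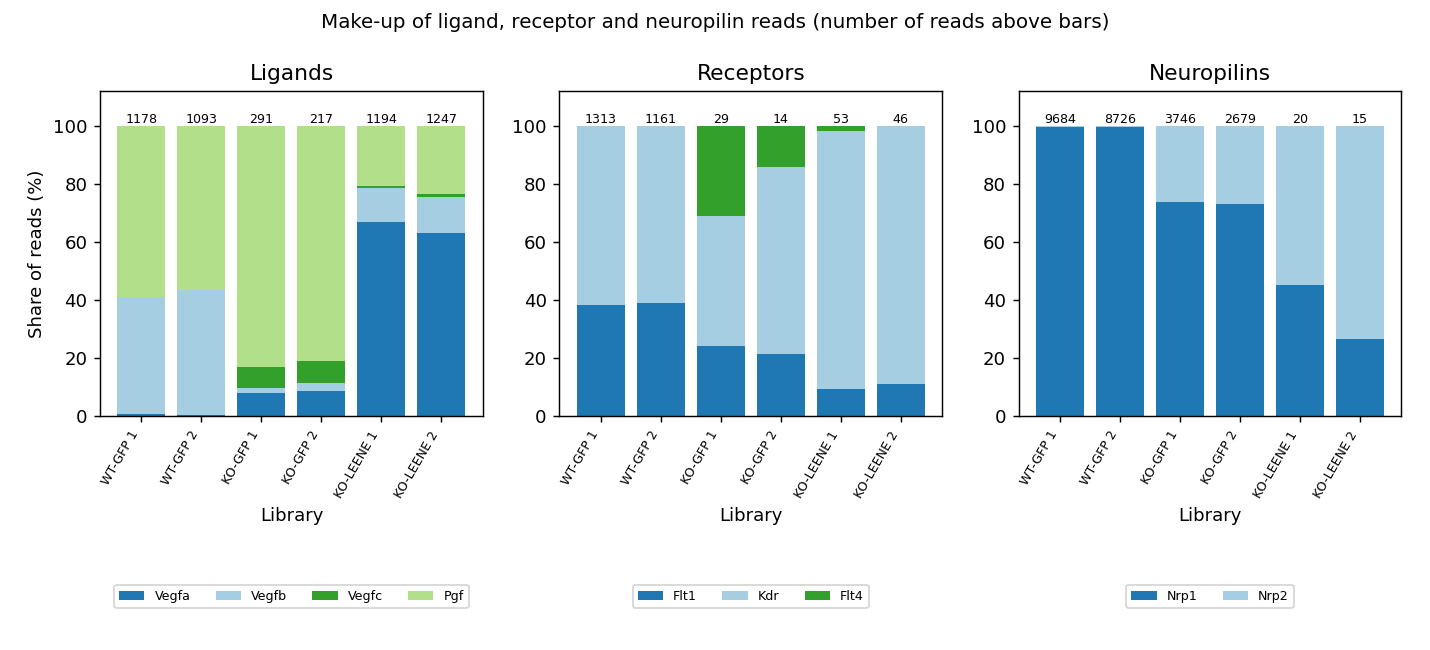
Stacked bars give the share (%) of reads taken by each ligand, receptor and neuropilin in each of the 6 libraries, with the number of reads in the set above each bar. Vegfa, at under 1% of ligand reads in WT-GFP, takes 66.9% and 63.2% in KO-LEENE, and the KO-GFP receptor bars rest on 29 and 14 reads.

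Neuropilins held most of the family's reads in WT-GFP and KO-GFP, and the pair diverged. Nrp1 (ENSMUSG00000025810, chromosome 8, 128359073 to 128505462, plus strand), which binds VEGF-A and enhances VEGFR2 signaling, had 9647 and 8692 reads in the WT-GFP libraries, 2769 and 1959 in those of KO-GFP, and 9 and 4 in those of KO-LEENE. KO-LEENE was far below both other groups and near the floor. The log2 fold change was -1.56 ± 0.110 in KO-GFP against WT-GFP (edgeR, adjusted p = 1.51e-41), -8.27 ± 0.194 in KO-LEENE against KO-GFP (edgeR, adjusted p = 8.23e-237) and -9.83 ± 0.193 in KO-LEENE against WT-GFP (edgeR, adjusted p = 9.26e-293). Without the first KO-LEENE library the latter differences were -8.97 and -10.5. Per Pecam1 read, Nrp1 had 45.7 and 49.7 reads in the WT-GFP libraries, 19.8 and 22.0 in those of KO-GFP, and 0.0947 and 0.0364 in those of KO-LEENE. The order of the groups was therefore the same per Pecam1 read, and also per Cdh5 read. It was not the same for every EC marker. Emcn, at 12245 and 8648 reads, far outnumbered Nrp1 in the KO-GFP libraries. With KO-LEENE it had 8 and 7 reads, close to those of Nrp1, so per Emcn read KO-GFP was lowest. The exons of Mir1903 overlap those of Nrp1, and Mir1903 had 0 reads; no other member overlapped another gene's exons.

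Nrp2 (ENSMUSG00000025969, chromosome 1, 62703285 to 62818695, plus strand), the neuropilin tied to VEGF-C and lymphatic vessels, had 37 and 34 reads in the WT-GFP libraries, 977 and 720 in those of KO-GFP, and 11 and 11 in those of KO-LEENE. KO-GFP stood apart, with both libraries far above those of the other groups. The log2 fold change was 4.97 ± 0.131 in KO-GFP against WT-GFP (edgeR, adjusted p = 1.88e-202) and -6.04 ± 0.170 in KO-LEENE against KO-GFP (edgeR, adjusted p = 6.08e-186). For KO-LEENE against WT-GFP it was -1.07 ± 0.339 (edgeR, adjusted p = 0.00273), and with library size as the only scaling -0.40 and no longer called (adjusted p = 0.301). Nrp1 took 99.6% of neuropilin reads in both WT-GFP libraries, 73.9% and 73.1% in KO-GFP, and 45.0% (exact 95% interval, 23.1 to 68.5) and 26.7% (7.79 to 55.1) in KO-LEENE, where only 20 and 15 neuropilin reads were counted. Divided by exonic length, the KO-LEENE shares were 62.1% and 42.2%.

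**Figure D2:**
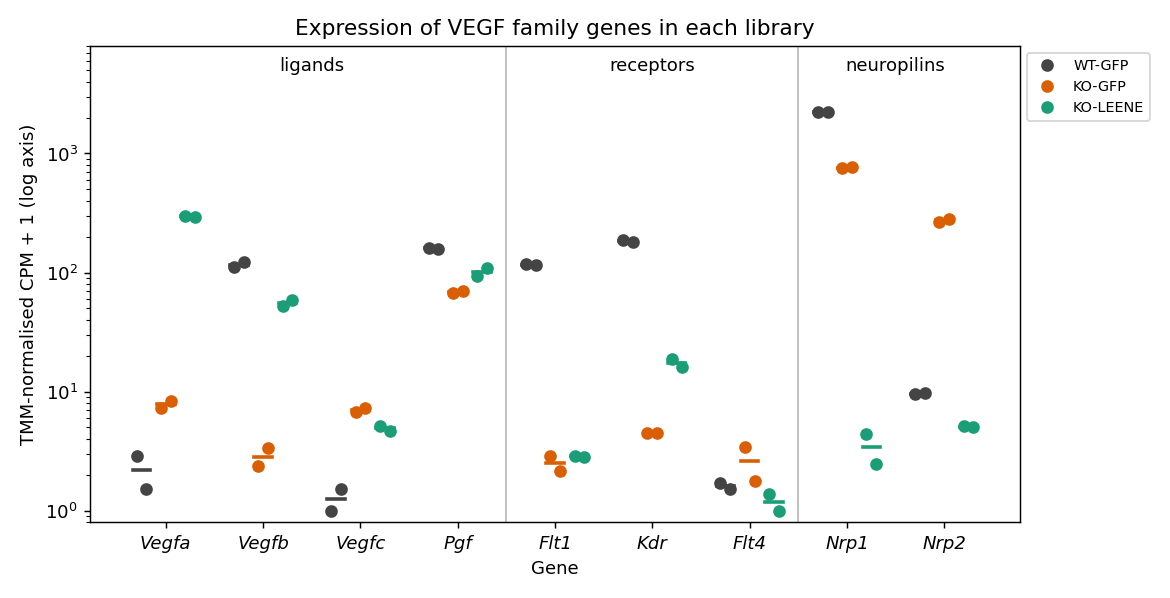
Each point is 1 library and each short line the mean of 2 libraries, as TMM-normalised CPM plus 1 on a log axis, for the 9 members ordered as ligands, receptors and neuropilins. Kdr, Flt1, Vegfb, Pgf and Nrp1 are highest in WT-GFP, Pgf against KO-LEENE not so with library size as the only scaling, Nrp2 is highest in KO-GFP, Vegfc is above WT-GFP in both KO groups, and Vegfa is highest in KO-LEENE at 299 and 291 CPM.

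Across the family, the summed reads fell from 0.268% and 0.266% of each library in WT-GFP to 0.0726% and 0.0803% in KO-GFP, and were 0.0715% and 0.0730% in KO-LEENE. The near-equal totals of the 2 KO groups had different contents. Neuropilins made up 79.5% of family reads in both WT-GFP libraries and 92.1% in both KO-GFP libraries, but 1.58% and 1.15% in KO-LEENE. There were 7.38 and 7.52 neuropilin reads for each receptor read in WT-GFP, then 129 and 191 in KO-GFP, then 0.377 and 0.326 in KO-LEENE. Ligand reads numbered 1178 and 1093, 291 and 217, and 1194 and 1247 in the same order, and receptor reads 1313 and 1161, 29 and 14, and 53 and 46. Ligand reads were thus similar in number to receptor reads in WT-GFP and outnumbered them in every KO-GFP and KO-LEENE library.

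Ordered by level per kilobase of exonic length (mean TMM-normalised CPM per kb), the WT-GFP group ran from Nrp1 at 377 ± 1.57 (SD, n = 2) over Pgf at 101 ± 1.58, Vegfb at 71.8 ± 4.78, Kdr at 20.4 ± 0.487 and Flt1 at 8.58 ± 0.0533 to Nrp2 at 0.729 ± 0.00711. Vegfa at 0.275, Vegfc at 0.136 and Flt4 at 0.0733 came last, and neighbors among these 3 did not differ beyond their spread. In KO-GFP, Nrp1 at 128 ± 1.05, Pgf at 42.4 ± 1.17 and Nrp2 at 23.0 ± 0.853 led, and Kdr at 0.390, Flt4 at 0.196 and Flt1 at 0.114 came last, the latter pair not apart. In KO-LEENE, Vegfa at 68.8 ± 1.34 and Pgf at 63.5 ± 7.37 led and did not differ beyond their spread, followed by Vegfb at 34.0 ± 2.46, and Nrp1 at 0.411 had dropped to the level of Nrp2 at 0.346. Pgf was the member that stayed among the first 2 in every group. Reads of a 3′ kit lie mostly near transcript ends, and how far division by length suits them was not tested.

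By the edgeR test, 8 of the 9 members were tested and 8 were called in KO-GFP against WT-GFP, 3 higher (Vegfa, Vegfc and Nrp2) and 5 lower (Vegfb, Pgf, Flt1, Kdr and Nrp1). The background was 70.1% of the 8903 genes tested, with 34.2% higher and 35.9% lower. In KO-LEENE against KO-GFP 6 were called, 4 higher (Vegfa, Vegfb, Pgf and Kdr) and 2 lower (Nrp1 and Nrp2), against a background of 67.8% (32.8% higher and 34.9% lower). In KO-LEENE against WT-GFP 8 were called, 2 higher (Vegfa and Vegfc) and 6 lower, against 70.7% (33.9% higher and 36.9% lower). A call was therefore what most genes of these libraries showed, and a gene that passed the filter only through a group where it was high had to differ, so the members' counts are a description. The median absolute log2 fold change of the 8 members was 4.69, 3.56 and 3.65 in the 3 comparisons, and that of all genes 2.09, 2.18 and 2.12. The comparisons share groups, so their counts are not independent. With library size as the only scaling, the median over all genes of the log2 fold change went from -0.09 to -0.57, from -0.01 to 1.07 and from -0.11 to 0.50. The members' log2 fold changes shifted with it, by -0.49 to -0.48, 1.14 to 1.16 and 0.66 to 0.67, and the higher share of the called genes went from 48.8% to 40.1% for KO-GFP against WT-GFP, from 48.5% to 67.1% for KO-LEENE against KO-GFP, and for KO-LEENE against WT-GFP from 47.9% to 59.9%.

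**Figure D3:**
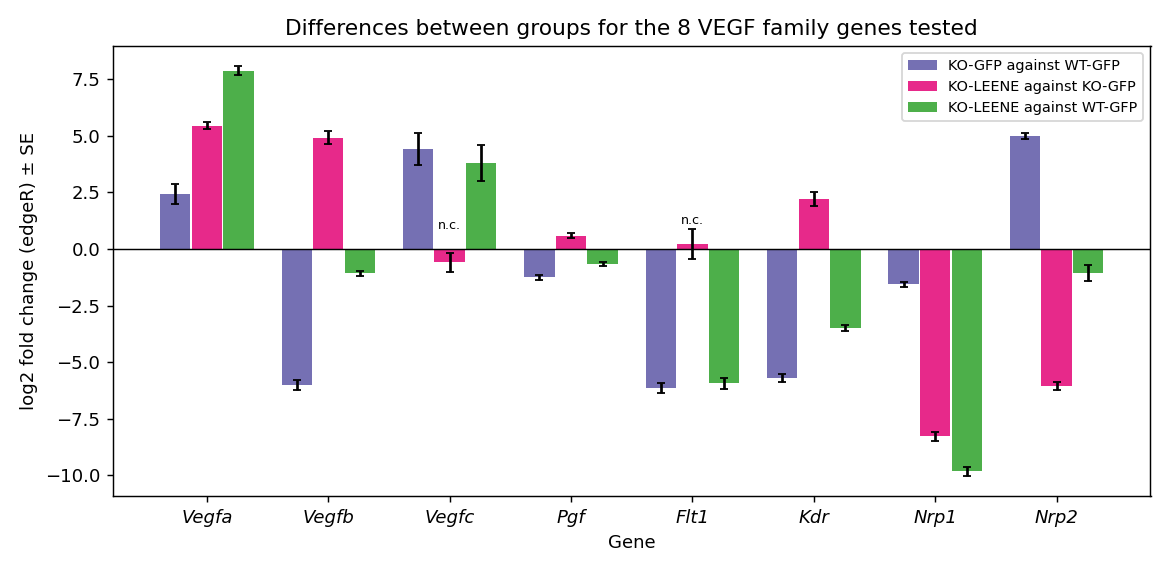
Bars give edgeR log2 fold changes with SE for the 8 members tested, in KO-GFP against WT-GFP, KO-LEENE against KO-GFP and KO-LEENE against WT-GFP; n.c. marks an adjusted p of 0.05 or more. Vegfb, Pgf and Kdr fall in the first comparison and rise in the second, Nrp2 does the reverse, Vegfa rises in both and Nrp1 falls in both.

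Of the 5 members that fell from WT-GFP to KO-GFP, Vegfb, Pgf and Kdr were called higher again with Ad-LEENE, Nrp1 was called lower still, and Flt1 was not called. Vegfb, Pgf and Kdr in KO-LEENE were also called lower than in WT-GFP, Pgf not with library size as the only scaling. Among the 8 tested members the most alike profile over the 6 libraries was that of Flt1 and Kdr, with a root mean square distance of 0.95 between centred log2 CPM values, and the least alike that of Vegfa and Nrp1, with 7.35. The genes most like Kdr were Rcn1 (0.137), Irak1 (0.176) and Taok1 (0.225). Those most like Flt1 were Fbn1 (0.131), Ptgs2os (0.159) and Snrpert (0.174), those most like Vegfb were Huwe1 (0.0971), Gm11220 (0.110) and 3110062G12Rik (0.217), and those most like Pgf were Fkbp8 (0.102), Dpf1 (0.109) and Nagk (0.121). Nearest to Vegfa were Elf2 (0.218), Pcnx4 (0.271) and Btg2 (0.348), and nearest to Vegfc were Gm8254 (0.136), Gm43354 (0.190) and Zhx1 (0.211). Nrp2 was followed by Gm10136 (0.100), Rps29 (0.122) and Nicol1 (0.155), while Nrp1 had no neighbor under 0.428 (Ociad2), with Eif3b (0.485) and Trappc13 (0.565) next. These distances describe 3 group levels more than 6 independent samples, and members near the floor are partly alike because low counts are.

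Downstream of the receptors, 27 of 34 VEGF receptor signaling genes were tested. In KO-GFP against WT-GFP 12 were higher and 11 lower (85.2% called, against the background of 70.1%), with a median log2 fold change of 0.02. Nck1, an adaptor that links VEGFR2 to actin, fell from 1109 and 957 reads in WT-GFP to 6 and 4 in KO-GFP, and Pik3r1, a regulatory subunit of PI3K, from 981 and 888 to 4 and 7. Plcg1, the phospholipase that binds activated VEGFR2, rose from 7 and 6 reads to 396 and 270. Sh2d2a, an adaptor that binds VEGFR2, was at 0 in WT-GFP and had 75 and 48 reads in KO-GFP. Genes close to the receptors thus moved in both directions, with log2 fold changes of -7.26 ± 0.192 for Nck1 and 6.04 ± 0.229 for Plcg1 (adjusted p = 2.12e-202 and 2.36e-119, edgeR).

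In KO-LEENE against KO-GFP, 6 of these 27 genes were higher and 13 lower (70.4% called, against 67.8%), with a median of -0.77. Library size scaling gave 11 higher and 12 lower and a median of 0.37, so the balance within the list depends on the scaling. Rac1, a GTPase of cell migration, fell from 11781 and 7629 reads to 22 and 20, and Plcg1 to 2 and 2. Map2k1, the kinase MEK1, rose from 0 and 0 reads to 69 and 46. In KO-LEENE against WT-GFP 9 were higher and 12 lower (77.8% called, against 70.7%), with a median of -1.31. Ptprb, the endothelial phosphatase VE-PTP, fell from 1928 and 1823 reads in WT-GFP to 8 and 6 in KO-LEENE, and Prkca, a protein kinase C, from 1419 and 1322 to 5 and 4.

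Among the neuropilin partners, that is, class 3 semaphorins and their plexin receptors, 9 of 12 genes were tested. In KO-GFP against WT-GFP 2 were higher and 3 lower, in KO-LEENE against KO-GFP 5 higher and 1 lower, and in KO-LEENE against WT-GFP 5 higher and 2 lower, or 55.6%, 66.7% and 77.8% called, against 70.1%, 67.8% and 70.7% of all genes; with library size alone the second comparison gave 7 higher and 0 lower. Plxna2 had 72 and 57 reads in the WT-GFP libraries, 622 and 410 in those of KO-GFP, and 889 and 893 in those of KO-LEENE. Plxnd1, the plexin of EC guidance, had 15 and 7, 28 and 21, and 465 and 468 reads. Sema3a, a repulsive ligand that binds Nrp1, had 11 and 15, 14 and 11, and 98 and 121 reads. Sema3f, which prefers Nrp2, had 46 and 35 reads in the WT-GFP libraries, 6 and 2 in those of KO-GFP, and 4 and 6 in those of KO-LEENE. Reads of this list summed to 105 to 111 CPM in WT-GFP, 221 to 235 in KO-GFP and 638 to 648 in KO-LEENE. Plxna2 and Plxnd1 made up most of the KO-LEENE sum, so its order is not that of the list as a whole. Plxna3 had 89 and 125, 44 and 28, and 9 and 16 reads, the same order of groups as Nrp1. For KO-GFP against WT-GFP the median log2 fold change of the list was -0.64.

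Of 18 hypoxia pathway genes 10 were tested. In KO-GFP against WT-GFP 4 were higher and 1 lower (50.0% called), in KO-LEENE against KO-GFP 5 higher and 3 lower (80.0%), and in KO-LEENE against WT-GFP 5 higher and 1 lower (60.0%), against the same 70.1%, 67.8% and 70.7%. Hif1a, the oxygen-regulated subunit of hypoxia-inducible factor 1, had 10 and 10 reads in the WT-GFP libraries, 46 and 33 in those of KO-GFP, and 930 and 870 in those of KO-LEENE, the same order of groups as Vegfa; it was chosen after its values were seen. Adm, which encodes adrenomedullin, had 0 to 3 reads outside KO-LEENE and 174 and 182 there, and Egln2, an oxygen-sensing hydroxylase, 0 to 4 and then 426 and 408. Epas1, which encodes HIF-2α, went another way, with 4 and 3 reads in the WT-GFP libraries, 174 and 92 in those of KO-GFP, and 0 and 2 in those of KO-LEENE. Arnt and Ankrd37 were likewise highest in KO-GFP. Arnt had 13 and 12, 74 and 46, and 3 and 4 reads, and Ankrd37 0 and 1, 129 and 92, and 0 and 0. Bnip3, a mitophagy gene induced by hypoxia, was counted 113 and 111 times in WT-GFP and had 0 reads in the other 4 libraries.

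For tip cell, Notch and angiopoietin genes, 13 of 18 were tested, with 6 higher and 4 lower in KO-GFP against WT-GFP, 3 higher and 7 lower in KO-LEENE against KO-GFP, and 5 higher and 4 lower in KO-LEENE against WT-GFP. These were 76.9%, 76.9% and 69.2% of those tested, near the 70.1%, 67.8% and 70.7% over all genes. With library size scaling, 6 were higher and 5 lower in the second comparison. Apln, a tip cell peptide, was counted 180 and 169 times in WT-GFP, 21 and 7 times in KO-GFP, and 491 and 428 times in KO-LEENE. Angpt2, the angiopoietin of vessel remodeling, had 9 and 7, 294 and 144, and 117 and 101 reads. Robo4, a guidance receptor of ECs, had 21 and 15, 1586 and 950, and 80 and 61.

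Endothelial transcription factors, of which 9 of 14 were tested, gave 3 higher and 3 lower, 3 higher and 5 lower, and 3 higher and 5 lower in the 3 comparisons, or 66.7%, 88.9% and 88.9% called beside 70.1%, 67.8% and 70.7% over all genes. Fli1 had 42 and 30 reads in the WT-GFP libraries, 7782 and 4908 in those of KO-GFP, and 10 and 11 in those of KO-LEENE. Ets1 had 129 and 120, 79 and 26, and 1182 and 1238, and Erg 417 and 345, 149 and 70, and 8 and 4. Each of these ETS factors, which bind the promoters of EC genes, was highest in a different group.

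**Figure D4:**
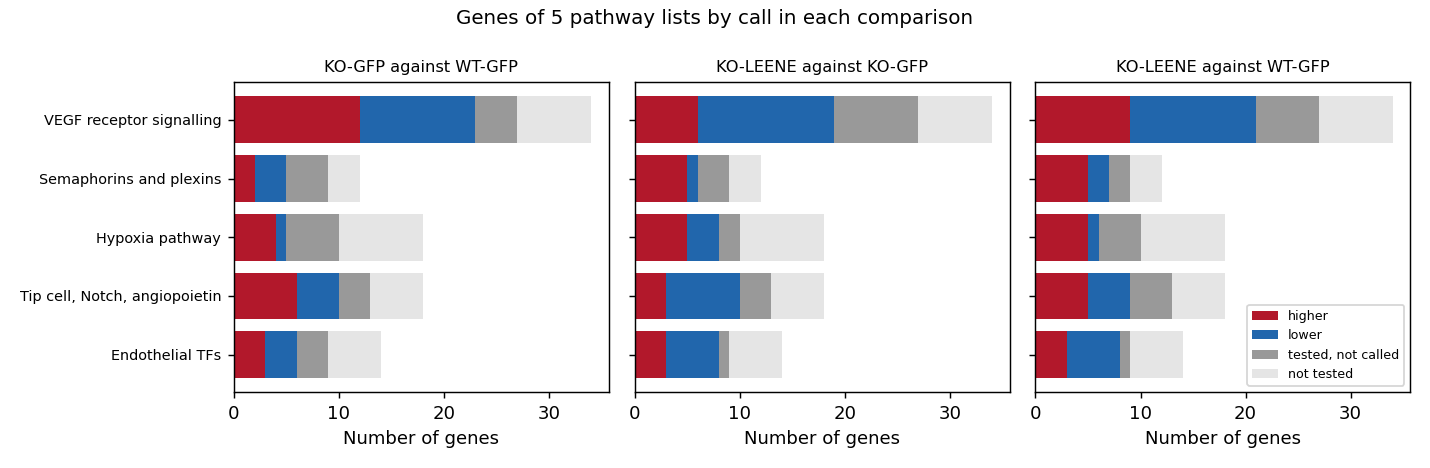
Bars count the genes of 5 pathway lists that were called higher (red), called lower (blue), tested and not called (dark gray) or not tested (light gray) in each of the 3 comparisons. With TMM scaling every list holds genes called in both directions in every comparison, with 12 higher and 11 lower of 27 tested VEGF receptor signaling genes in KO-GFP against WT-GFP.

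Markers of cell types moved with the groups. Of 14 endothelial markers 11 were tested, and their summed level was 612 to 615 CPM in WT-GFP, 4329 to 4427 in KO-GFP and 224 to 229 in KO-LEENE. Within it, Pecam1 had 211 and 175, 140 and 89, and 95 and 110 reads, and Emcn 14 and 8, 12245 and 8648, and 8 and 7. Emcn alone thus made up most of the sum in KO-GFP. For KO-GFP against WT-GFP 4 endothelial markers were called higher (Emcn, Tie1, Robo4 and Vwf) and 2 lower (Pecam1 and Ptprb, Pecam1 not by DESeq2), or 54.5% called against 70.1% of all genes. Cdh5 was not called (lower with library size alone). Tie1 had 9 and 1 reads in the WT-GFP libraries and 588 and 366 in those of KO-GFP. Fibroblast markers (6 of 9 tested) summed to 65.8 to 74.2 CPM in WT-GFP, 22347 to 24292 in KO-GFP and 78.7 to 81.3 in KO-LEENE, with Dcn, Col3a1 and Col1a2 high in KO-GFP, Pdgfra at 171 and 141, 119 and 93, and 65 and 66 reads, Mfap5 at 3 to 5 reads outside KO-LEENE and 65 and 72 there, and Lum and S100a4 at 0 or 1 read in every library. Macrophage markers (6 of 13) summed to 32.7 to 45.0, 1139 to 1286 and 19.6 to 24.0 CPM, with Adgre1, Mrc1, Lyz2 and Fcgr1 called higher and C1qb and Mertk called lower for KO-GFP against WT-GFP (Mertk not by DESeq2). C1qb had 32 and 37, 1 and 5, and 3 and 2 reads, Mertk 3 and 6, 0 and 1, and 26 and 27, and Cd68 was at 0 or 1 read and Itgam at 0 to 2 in every library. Lymphatic markers (2 of 6) summed to 13.0 to 18.5, 106 to 107 and 82.8 to 99.4 CPM, carried by Reln in both KO groups, where Prox1 was called lower than in WT-GFP (in KO-GFP by edgeR but not by DESeq2). Muscle fiber markers (5 of 14) summed to 12.5 to 15.3, 63.0 to 65.3 and 42.5 to 44.2 CPM, with Myh4 and Pvalb high in KO-GFP and Myh1 called lower there. Mural markers (2 of 10) summed to 5.33 to 5.37, 7.39 to 7.61 and 26.6 to 34.4 CPM, mostly from Rgs5 in KO-LEENE, where it had 51 and 69 reads. Each of these sums rests on a few genes, and other members of the endothelial, fibroblast, macrophage, lymphatic and muscle lists went the other way; the part of these cell types in the members' results was not tested.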

How the data were processed

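RNA-seq was performed on CD144-enriched cells, with 2 libraries in each of 3 groups taken from the sample titles. Per the labels, cDNA came from a 3′ single-cell kit without the droplet step. Per the file headers and the submitters' processing notes, the authors aligned reads with STAR 2.5.4b and counted uniquely aligned reads per gene with featureCounts 2.0.0, without strand, over exons of Ensembl release 84 on GRCm38; the deposited values are raw counts. The study's methods instead name mm9 and TPM values. No collapsing of molecular identifiers is named.

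Of 47729 genes, 43465 had a symbol under the same identifier. Counts were tested in R 4.3.3 by edgeR 4.0.16 (quasi-likelihood test) over all 6 libraries, with TMM scaling and filterByExpr (minimum count 10, minimum total 15), which left 8903 genes. Benjamini-Hochberg adjustment was made per comparison, and values under 0.05 were called. SE is the size of the log2 fold change divided by the square root of F, an approximation. With 2 libraries per group an exact permutation test cannot go under 0.333, so none was run.

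The 9 members, the gene lists and the naming rule (up to 4 called members per list and comparison with the largest change and no overlap, of which some are given in the text, and the 3 genes nearest each member by centred log2 CPM with a prior count of 2) were chosen with earlier results of these data known. Promoters are from RefSeq on GRCm38.p6. Alternatives were DESeq2 1.42.0, its size factors in edgeR, library size alone, only the 4 libraries compared, other filters, thinning, a replicate block and leaving out each library. Protein sequences were not used here.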

Additional observations from a re-analysis of the deposited data

How the results depend on the processing

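Of the log2 fold changes of members under the alternatives, 313 kept their direction and their side of the threshold, 3 changed sign, and 1 kept its sign but was no longer called. The 3 were Vegfc (0.55) in KO-LEENE against KO-GFP and Pgf (0.00278) in KO-LEENE against WT-GFP, both with library size alone, and Flt1 (-0.032) in KO-LEENE against KO-GFP without the second KO-GFP library; leaving out each library in turn gave Flt1 there -0.032 to 0.66. Vegfc and Flt1 were not called in the first place, whereas Pgf was called with TMM scaling and lost its call with library size alone. Nrp2 in KO-LEENE against WT-GFP was -0.40 with library size alone, and not called.

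Requiring at least 10 reads in every sample by construction removes genes near the floor in any group. Of the members only Pgf and Nrp2 passed this filter, and these 2 were called in each comparison. Among all genes 1536, 1505 and 1552 were called in KO-GFP against WT-GFP, KO-LEENE against KO-GFP and KO-LEENE against WT-GFP. How many genes passed is not given here, so these counts stand without a share. Also, 18 list counts moved by over 1.5 times, all under this filter. Leaving out each library in turn, with the same genes kept and a lone library assumed to vary like the others, gave 8 to 8, 6 to 6 and 8 to 8 members called, and 5588 to 6216, 5463 to 5997 and 5784 to 6224 genes. The replicate numbers of the titles did not pair the samples (correlations of deviations 0.0306, 0.0138 and 0.0192); with the replicate block, 8, 6 and 8 members and 6072 genes in KO-GFP against WT-GFP were called. With no filter on low counts 7 members were called in KO-LEENE against KO-GFP, the added one being Flt4. Thinning to the smallest library total moved Vegfb to -5.17 and Vegfc to 3.29 in KO-GFP against WT-GFP, Vegfc to 2.73 in KO-LEENE against WT-GFP, and Kdr to 2.88 in KO-LEENE against KO-GFP. Depth limits every value that rests on about 10 reads or fewer, such as those of Flt4 in all groups, Vegfa and Vegfc in WT-GFP, Flt1, Vegfb and Kdr in KO-GFP, and Flt1 and Nrp1 in KO-LEENE.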
